A study of Mus musculus with 10 samples.

Results

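Neurod1, Neurod2, Neurod6, Nhlh1, Nhlh2 and Ascl5 encode basic helix-loop-helix (bHLH) transcription factors. RNA of these 6 genes was described in mouse somatosensory cortex lacking Nsd1, a histone H3 lysine 36 methyltransferase, in excitatory neurons. They were found by name, as 6 of 23283 named rows of the 2.5-month table and 6 of 54427 of the 3-month table. In the 2.5-month table Neurod1 is present only in a row that joins it with Cerkl, a neighbouring gene. Nhlh1 was selected on its measured levels, which were higher in the knockout libraries of both models, so its values are a description with no test. Neurod6 is the locus in which the Nex-Cre driver is inserted.

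A bHLH factor binds DNA as a dimer, usually with a widely expressed E protein, at the short palindromic motif called an E-box, CANNTG. In the developing forebrain, proneural factors such as the Neurogenins act in progenitors and switch on NeuroD and NHLH factors in the newborn neuron. Id proteins lack the basic region and sequester E proteins, and Hes and Hey proteins repress neurogenesis downstream of Notch.

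The 3 Nex_cKO libraries came from 2.5-month-old mice labelled Nsd1Nex-cKO. They were set against 3 Nex_Ctrl libraries of the same age, of which replicates 1 and 2 were labelled Nsd1fl/+ and replicate 3 Nsd1fl/fl. The 2 Camk2a_cKO libraries came from 3-month-old mice labelled Nsd1Camk2a-cKO, and the 2 Camk2a_Ctrl libraries from 3-month-old Nsd1fl/+ mice. Floxed Nsd1 alleles are thus part of the control labels too. Nex-Cre is known to act in newly postmitotic pyramidal neurons of the embryonic forebrain, and Camk2a-Cre later, mainly in postnatal forebrain excitatory neurons. The labels do not say whether controls carried Cre, and Nex-Cre replaces coding sequence of Neurod6 in the published allele, so driver and deletion cannot be told apart for that gene. Driver, age and table differed together between the models, as did the level of the Y-linked gene given below.

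Levels are FPKM, fragments per kilobase of gene model scaled to the mapped fragments of the library, as the authors deposited them. The 3-month libraries held 16901717 and 16943855 reads in Camk2a_cKO and 17521841 and 20074933 in Camk2a_Ctrl, recovered from the deposited values. The depth of the 2.5-month libraries is unknown. In the 2.5-month table Nsd1 shares a row with Prelid1, at 91.0, 118 and 106 FPKM in Nex_cKO, against 130, 125 and 141 FPKM in Nex_Ctrl (log2 change -0.34, limma adjusted p 0.0863). In the 3-month table Nsd1 alone stood at 4.31 and 4.99 FPKM in Camk2a_cKO, against 5.61 and 8.87 in Camk2a_Ctrl (log2 change -0.52, adjusted p 0.685). All 16 cortical excitatory markers were detected in both tables, Camk2a itself at 661 to 662 FPKM in Nex_cKO against 700 to 773 in Nex_Ctrl, and at 530 to 574 in Camk2a_cKO against 497 to 552 in Camk2a_Ctrl. Nex_cKO replicate 3 stood apart from the other 2.5-month libraries: the Y-linked Ddx3y was at 16.2 FPKM there and listed at 0 in the other 5, and rows without a gene name held 41.6% of its summed FPKM, against 2.33% to 19.4% elsewhere. Where leaving it out changed a call or a count given below, the value without it is given there.

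Nhlh1 (ENSMUSG00000051251, minus strand of chromosome 1, 172052292 to 172057573, GRCm38) encodes a factor known from newborn neurons of the embryonic nervous system, where its expression is transient. It stood at 6.41, 8.47 and 4.21 FPKM in Nex_cKO replicates 1 to 3, against 0.387, 0.723 and 0.318 FPKM in Nex_Ctrl replicates 1 to 3. Every Nex_cKO library was above every Nex_Ctrl library, and the lowest of them was Nex_cKO replicate 3. The means were 6.36 ± 2.13 FPKM in Nex_cKO and 0.476 ± 0.217 FPKM in Nex_Ctrl (SD, n = 3 each), a 13.4-fold ratio and a log2 change of 2.29 on the scale of log2(FPKM + 1), which understates the change of a low gene. At 3 months it stood at 3.08 and 2.17 FPKM in Camk2a_cKO, against 0.165 and 0.246 FPKM in Camk2a_Ctrl. The groups again did not overlap, the ratio of means was 12.8 and the log2 change 1.58. These levels rest on 135 and 90 reads in Camk2a_cKO, against 7 and 12 reads in Camk2a_Ctrl. The exact Poisson 95% intervals, which cover counting error only, were 113 to 160 and 72.4 to 111 reads in Camk2a_cKO, against 2.81 to 14.4 and 6.20 to 21.0 reads in Camk2a_Ctrl.

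By size of log2 change Nhlh1 was the 25th highest of 12528 genes tested at 2.5 months and the 10th highest of 12919 at 3 months. It was selected for its rise, so these ranks are a description. It passed the filter on low values only through the knockout libraries, since no control library reached 1 FPKM. The tissue is bulk cortex, so more cells with the RNA and more RNA per cell cannot be told apart in a rise, nor fewer cells of a type and less RNA per cell in a fall.

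Nhlh2 (ENSMUSG00000048540, plus strand of chromosome 3, 102010076 to 102015492), the closest relative of Nhlh1 and known for roles in hypothalamic neurons, did not share this pattern. It was listed at 0 in all 3 Nex_cKO libraries, against 0.0347, 0 and 0.0171 FPKM in Nex_Ctrl. At 3 months it had 6 and 1 reads in Camk2a_cKO, against 5 and 1 reads in Camk2a_Ctrl. It did not pass the filter in either table and was not tested.

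**Figure D1:**
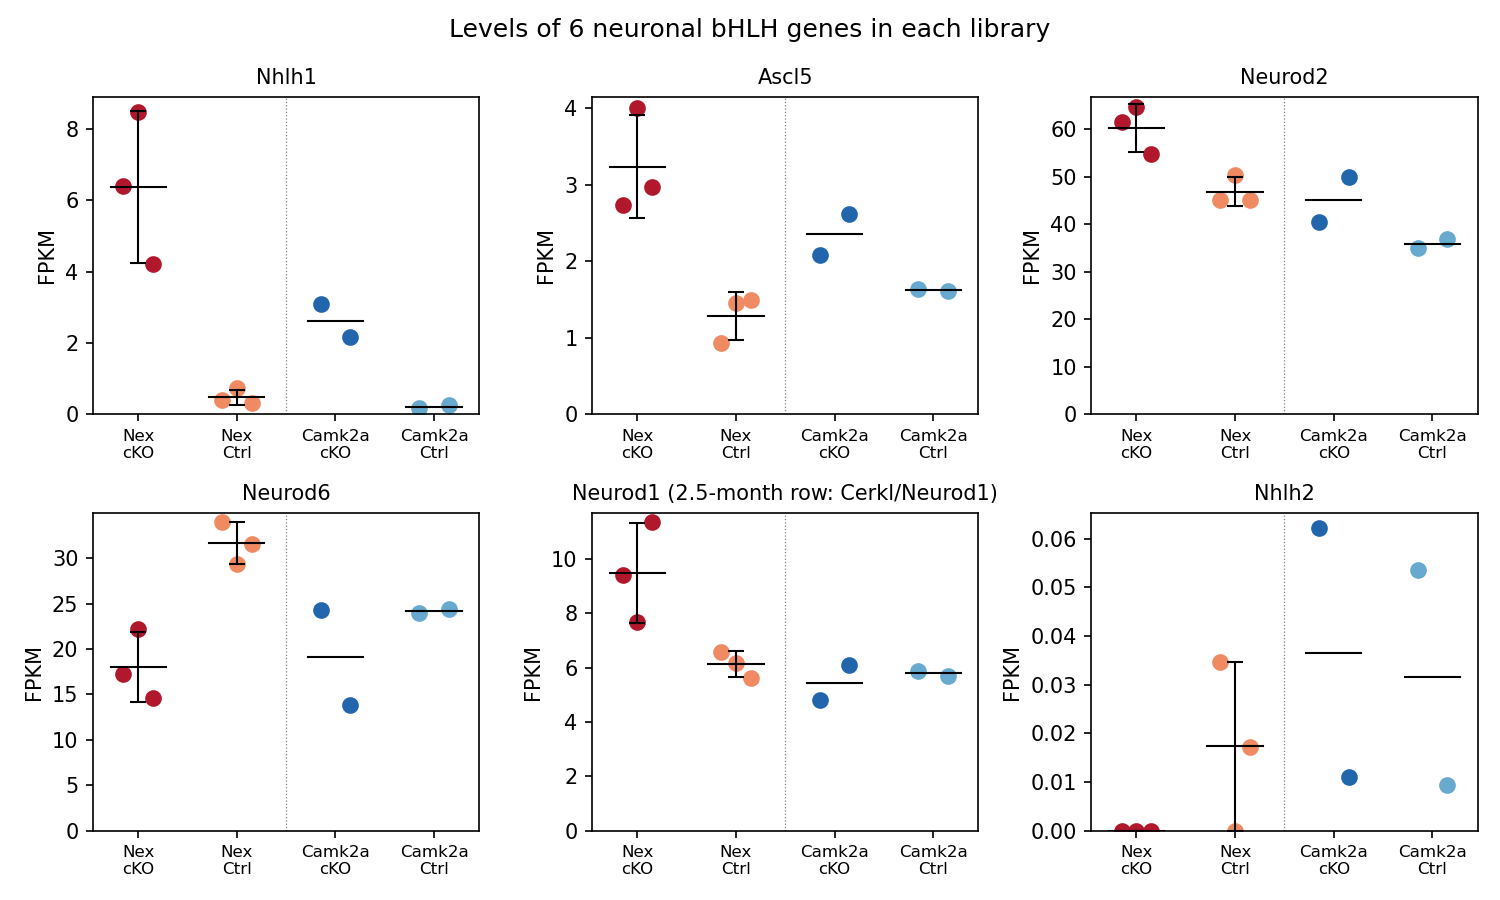
FPKM of each gene in each library on a linear axis from 0 in each panel, by group; points are libraries, horizontal lines group means, and bars the SD where a group has 3 libraries. The 3 Nex_cKO libraries sit at 4.21 to 8.47 FPKM of Nhlh1, above all Nex_Ctrl libraries at 0.318 to 0.723, while Neurod6 sits lower in Nex_cKO than in Nex_Ctrl.

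The NeuroD genes were the more abundant members. Neurod2 (ENSMUSG00000038255, minus strand of chromosome 11, 98325415 to 98329648), known for its part in the differentiation and synaptic maturation of cortical excitatory neurons, was the most abundant of the 6 genes in all 4 groups. It stood at 61.5, 64.7 and 54.7 FPKM in Nex_cKO, against 45.2, 50.4 and 45.1 FPKM in Nex_Ctrl. The groups did not overlap, and the ratio of means (60.3 ± 5.09 in Nex_cKO, 46.9 ± 3.01 in Nex_Ctrl) was 1.29. The log2 change of 0.35 (SE 0.08, 95% interval 0.16 to 0.55) passed the test, with a limma adjusted p of 0.0354. The margin was narrow: the adjusted p was 0.142, 0.0558 and 0.144 without Nex_Ctrl replicate 1, 2 or 3, 0.119 and 0.0673 without Nex_cKO replicate 1 or 2, and 0.0078 without Nex_cKO replicate 3.

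Neurod6 (ENSMUSG00000037984, minus strand of chromosome 6, 55677822 to 55681263), a marker of pyramidal neurons that is also called Nex, stood at 17.2, 22.2 and 14.6 FPKM in Nex_cKO, against 34.0, 29.4 and 31.5 FPKM in Nex_Ctrl. Every Nex_cKO library was below every Nex_Ctrl library. The means were 18.0 ± 3.85 FPKM in Nex_cKO and 31.6 ± 2.30 FPKM in Nex_Ctrl, a ratio of 0.57. The log2 change of -0.80 (SE 0.13, 95% interval -1.10 to -0.49) passed the test with an adjusted p of 0.00718 and kept its side of the threshold in all 14 alternatives computed for it. The Nex-Cre insertion lies in this gene; how far the insertion accounts for the lower level was not tested.

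The row that joins Neurod1 with Cerkl stood at 9.41, 7.68 and 11.4 FPKM in Nex_cKO, against 6.59, 6.19 and 5.63 FPKM in Nex_Ctrl. Neurod1 (ENSMUSG00000034701, minus strand of chromosome 2, 79452521 to 79456751) drives neuronal differentiation and is high in dentate granule cells. Cerkl spans 79330543 to 79456785 on the same strand and covers all 4231 bases of it. The groups did not overlap. The means were 9.49 ± 1.86 FPKM in Nex_cKO and 6.14 ± 0.481 FPKM in Nex_Ctrl, a ratio of 1.55, with a log2 change of 0.54 (SE 0.13) and an adjusted p of 0.0377. The adjusted p was 0.0843, 0.106 and 0.136 without Nex_Ctrl replicate 1, 2 or 3, 0.110 and 0.0520 without Nex_cKO replicate 1 or 3, and 0.0094 without Nex_cKO replicate 2. Whether the difference belongs to Neurod1 or to Cerkl cannot be told apart in that row. Where the 3-month table separates them, Cerkl had 17 and 17 reads in Camk2a_cKO, against 27 and 24 in Camk2a_Ctrl, while Neurod1 had 233 and 280 reads in Camk2a_cKO, against 276 and 308 in Camk2a_Ctrl.

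Ascl5 (ENSMUSG00000097918, plus strand of chromosome 1, 136050804 to 136051370) is an achaete-scute factor known as AmeloD from the dental epithelium. Its model of 567 bases starts at the start codon. It stood at 2.73, 4.0 and 2.96 FPKM in Nex_cKO, against 0.926, 1.45 and 1.49 FPKM in Nex_Ctrl. All Nex_cKO libraries were above all Nex_Ctrl libraries, with means of 3.23 ± 0.673 FPKM in Nex_cKO and 1.29 ± 0.314 FPKM in Nex_Ctrl. The ratio was 2.51, and the log2 change of 0.89 (SE 0.15, 95% interval 0.54 to 1.23) passed the test with an adjusted p of 0.00811 and in all 13 alternatives computed for it.

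Of the 4 genes tested beside Nhlh1, 4 were thus past the threshold in the Nex model, 3 higher and 1 lower, where 8.53% of all 12528 genes tested were past it, 4.47% higher and 4.06% lower. Groups without overlap were seen for 30.4% of all genes. The 6 genes were picked with these data in view, so the count is not read against that share.

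In the Camk2a model none of the 4 passed the limma test, where 0 of 12919 genes passed (0.0%) and 899 (6.96%) had an unadjusted p under 0.05. Neurod2 stood at 40.4 and 49.9 FPKM in Camk2a_cKO, against 34.9 and 36.9 FPKM in Camk2a_Ctrl, without overlap, which held for 37.3% of all genes. Its log2 change was 0.31 (SE 0.12, 95% interval 0.02 to 0.61) with an adjusted p of 0.685. Ascl5 stood at 2.08 and 2.62 FPKM in Camk2a_cKO, against 1.64 and 1.61 FPKM in Camk2a_Ctrl, with a log2 change of 0.35 (SE 0.14, 95% interval -0.00045 to 0.70) and an adjusted p of 0.716. Its 21 and 25 reads in Camk2a_cKO and 16 and 18 reads in Camk2a_Ctrl have overlapping exact Poisson 95% intervals.

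The other 2 NeuroD genes overlapped between the Camk2a groups. Neurod6 stood at 24.3 and 13.9 FPKM in Camk2a_cKO, against 24.0 and 24.4 FPKM in Camk2a_Ctrl. Only Camk2a_cKO replicate 2 was low, with 501 reads against 930 in Camk2a_cKO replicate 1 and 886 and 1037 in Camk2a_Ctrl. The log2 change was -0.38 (SE 0.24, 95% interval -0.95 to 0.20, adjusted p 0.822), and it was 0.0072 without Camk2a_cKO replicate 2 and -0.76 without Camk2a_cKO replicate 1. Neurod1 stood at 4.80 and 6.10 FPKM in Camk2a_cKO, against 5.88 and 5.71 FPKM in Camk2a_Ctrl, with a log2 change of -0.082 (SE 0.13, 95% interval -0.40 to 0.23, adjusted p 0.932). Without Camk2a_cKO replicate 1 its change was 0.064.

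**Figure D2:**
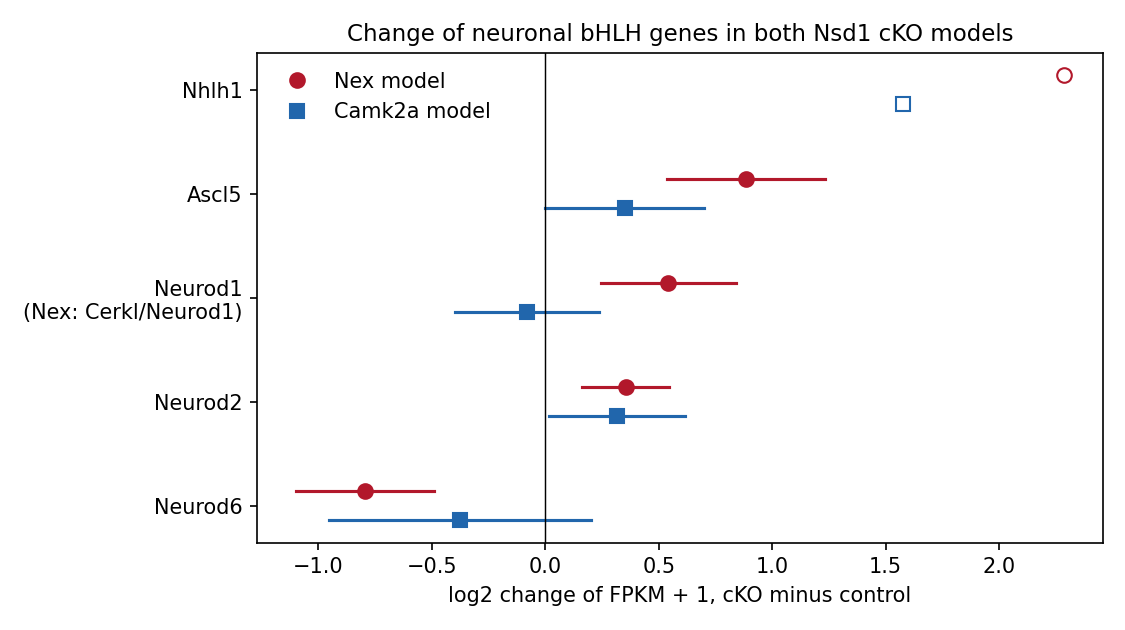
log2 change of FPKM + 1, cKO minus control, of each gene that passed the filter, in both models; bars are 95% intervals from limma, and Nhlh1 (open symbols) has none because it is described without a test. The point estimates of Neurod2 and Ascl5 lie above 0 in both models, and Neurod6 lies at -0.80 in Nex and -0.38 in Camk2a.

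None of the 3 genes tested for a difference between the models passed, where 55 of 10409 genes (0.528%) did and 1389 (13.3%) had an unadjusted p under 0.05. The change of Ascl5 in the Nex model minus that in the Camk2a model was 0.54 (95% interval 0.045 to 1.03, adjusted p 0.343). For Neurod2 the difference was 0.040 (95% interval -0.29 to 0.37, adjusted p 0.927), and for Neurod6 it was -0.42 (95% interval -1.04 to 0.20, adjusted p 0.547). For Nhlh1, given without a test, the difference depended on the pseudocount: it was 0.71 with a pseudocount of 1 and 0.35 with 0.1, and the ratios of means were 13.4 and 12.8. Neurod1 was left out because its rows differ between the tables.

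The order of levels, per length, was the same in both control groups: Neurod2, Neurod6, Neurod1 (with Cerkl at 2.5 months), Ascl5, Nhlh1 and Nhlh2. In both knockout groups Nhlh1 came before Ascl5 by mean level. In Nex_cKO the libraries of the Neurod1 row (7.68 to 11.4 FPKM) and Nhlh1 (4.21 to 8.47 FPKM) overlapped, and in Camk2a_cKO those of Nhlh1 (2.17 to 3.08 FPKM) and Ascl5 (2.08 to 2.62 FPKM) did. No other neighbours in the order overlapped.

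Neurod2 and Neurod6, paralogs that pyramidal neurons express together, changed in opposite directions in the Nex model. The ratio of Neurod2 to Neurod6 was 3.57, 2.91 and 3.74 in Nex_cKO, against 1.33, 1.71 and 1.43 in Nex_Ctrl. Every Nex_cKO ratio was above every Nex_Ctrl ratio, with means of 3.41 ± 0.436 in Nex_cKO and 1.49 ± 0.199 in Nex_Ctrl (SD, n = 3 each). Its values were 1.66 and 3.60 in Camk2a_cKO, against 1.46 and 1.51 in Camk2a_Ctrl, and the high value was that of replicate 2. The summed FPKM of the pair was 78.7, 86.9 and 69.4 in Nex_cKO, against 79.2, 79.8 and 76.6 in Nex_Ctrl, so the groups overlapped. It was 64.7 and 63.8 in Camk2a_cKO, against 58.9 and 61.3 in Camk2a_Ctrl. These ratios and sums were chosen after the values were seen and carry no test.

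**Figure D3:**
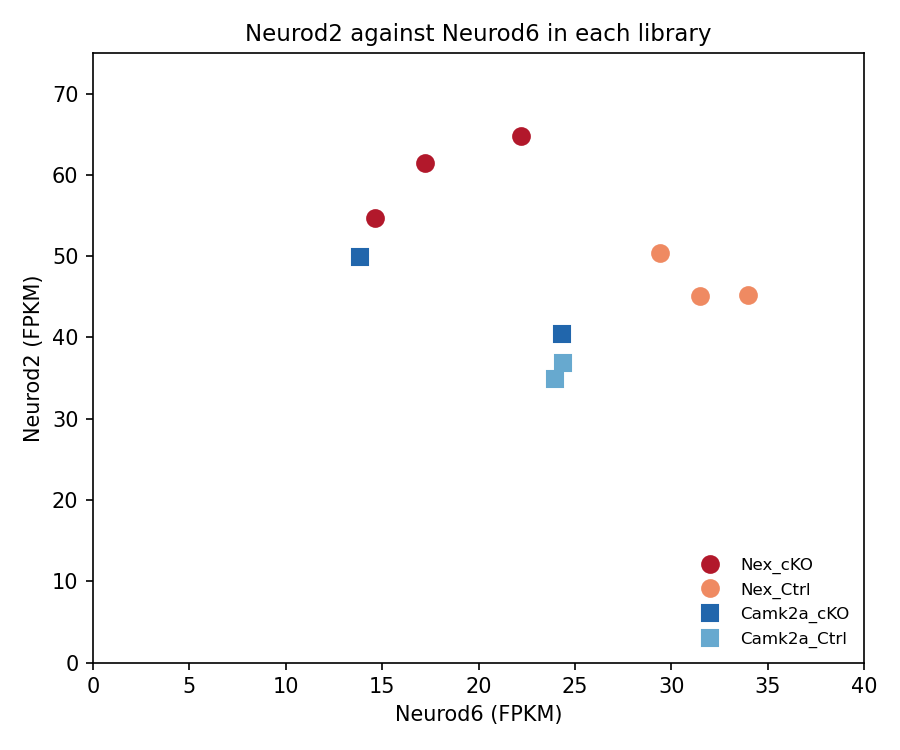
FPKM of Neurod2 (vertical axis) against FPKM of Neurod6 (horizontal axis), 1 point per library, by group. The 3 Nex_cKO libraries lie at 54.7 to 64.7 FPKM of Neurod2 and 14.6 to 22.2 FPKM of Neurod6, to the upper left of the 3 Nex_Ctrl libraries at 45.1 to 50.4 and 29.4 to 34.0 FPKM.

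The sequence upstream of Nhlh1, Neurod2 and Neurod6 is shown because Nhlh1 and Neurod2 were higher and Neurod6 lower in Nex_cKO, and because E-boxes are the motif their products bind. Each line gives the 250 bases before the start of the gene in RefSeq on GRCm38.p6, 5′ to 3′, with E-boxes (CANNTG, which reads the same on both strands) in capitals. The windows are chr1:172057597-172057846 for Nhlh1, chr11:98329646-98329895 for Neurod2 and chr6:55681264-55681513 for Neurod6, all on the minus strand.
Nhlh1: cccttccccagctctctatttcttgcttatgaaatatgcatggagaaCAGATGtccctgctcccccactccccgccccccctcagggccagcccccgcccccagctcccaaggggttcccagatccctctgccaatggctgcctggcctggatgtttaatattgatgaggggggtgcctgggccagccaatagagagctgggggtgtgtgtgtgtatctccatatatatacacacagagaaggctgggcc
Neurod2: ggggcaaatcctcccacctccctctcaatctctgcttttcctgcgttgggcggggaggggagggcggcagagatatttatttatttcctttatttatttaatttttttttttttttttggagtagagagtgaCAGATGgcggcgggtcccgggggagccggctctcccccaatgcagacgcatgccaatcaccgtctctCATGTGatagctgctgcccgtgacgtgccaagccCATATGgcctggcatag
Neurod6: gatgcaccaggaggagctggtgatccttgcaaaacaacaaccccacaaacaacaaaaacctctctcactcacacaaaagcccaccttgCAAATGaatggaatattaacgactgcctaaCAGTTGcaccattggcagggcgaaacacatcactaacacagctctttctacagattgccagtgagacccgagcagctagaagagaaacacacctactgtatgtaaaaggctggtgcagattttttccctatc
The Nhlh1 window holds 1 E-box, of the form CAGATG, the Neurod2 window 3, of which 1 has that form, and the Neurod6 window 2, of which none has it. Of 32817 windows of this length in RefSeq, 66.2% hold at least 1 E-box, 31.8% at least 2 and 12.2% at least 3. The form CAGATG, or CATCTG on the other strand, occurs in 14.5% of the windows. CpG dinucleotides number 2 in the Nhlh1 window, 11 in the Neurod2 window and 3 in the Neurod6 window, where the median of all windows is 6. The Nhlh1 and Neurod6 windows overlap no gene of the GENCODE annotation, and the Neurod2 window overlaps 3 bases of the Neurod2 exon.

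The nearest pair of named protein-coding genes on each side was read for every one of the 6 genes, 23 neighbours without Cerkl. In the Nex model 16 were tested, of which 3 rose and 1 fell, where 4.47% of all genes tested were higher and 4.06% lower. Among the 3, Cacna1s and Ccdc129 passed the filter on low values only through Nex_cKO, since no Nex_Ctrl library reached 1 FPKM, so they could be tested only because they were higher there. In the Camk2a model 12 were tested and 0 passed. None of the changed neighbours lies next to Nhlh1: Vangl2, a planar cell polarity gene, changed by -0.20 (adjusted p 0.391), Ncstn, a gamma-secretase subunit, by -0.20 (adjusted p 0.129), and Copa, a coat protein of vesicles, by 0.045 (adjusted p 0.727), none past the threshold.

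Of the changed neighbours, 3 flank Ascl5. Cacna1s, a voltage-gated calcium channel subunit of skeletal muscle, starts 1.95 kb from the start of Ascl5 and averaged 2.41 FPKM in Nex_cKO and 0.200 FPKM in Nex_Ctrl (log2 change 1.51, adjusted p 7.94e-05). Igfn1, a protein with immunoglobulin and fibronectin domains known from muscle, averaged 15 FPKM in Nex_cKO and 5.67 FPKM in Nex_Ctrl (log2 change 1.25, adjusted p 0.000205), and in the Camk2a model 3.71 FPKM in Camk2a_cKO and 2.23 FPKM in Camk2a_Ctrl (log2 change 0.54, adjusted p 0.474). Tmem9, a lysosomal membrane protein, fell to 22.8 FPKM in Nex_cKO, against 33.6 FPKM in Nex_Ctrl (log2 change -0.55, adjusted p 0.00971, and 0.0520 without Nex_Ctrl replicate 1). Kif21b, a kinesin, changed by -0.16 and did not pass (adjusted p 0.323). The genes around Ascl5 thus moved in both directions.

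Ccdc129, whose start is 155.6 kb from that of Neurod6, rose to 3.65 FPKM in Nex_cKO, against 0.536 FPKM in Nex_Ctrl (log2 change 1.60, adjusted p 0.0001), beside the fall of Neurod6. On its other side Adcyap1r1, the receptor of the neuropeptide PACAP, changed by 0.15 and did not pass (adjusted p 0.253). Around Neurod2, Med1 and Cdk12, which act in transcription, changed by -0.021 and 0.076, the dopamine-responsive phosphatase inhibitor Ppp1r1b by 0.22 and the lipid transfer protein Stard3 by -0.39, none past the threshold (adjusted p 0.0752 to 0.927).

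**Figure D4:**
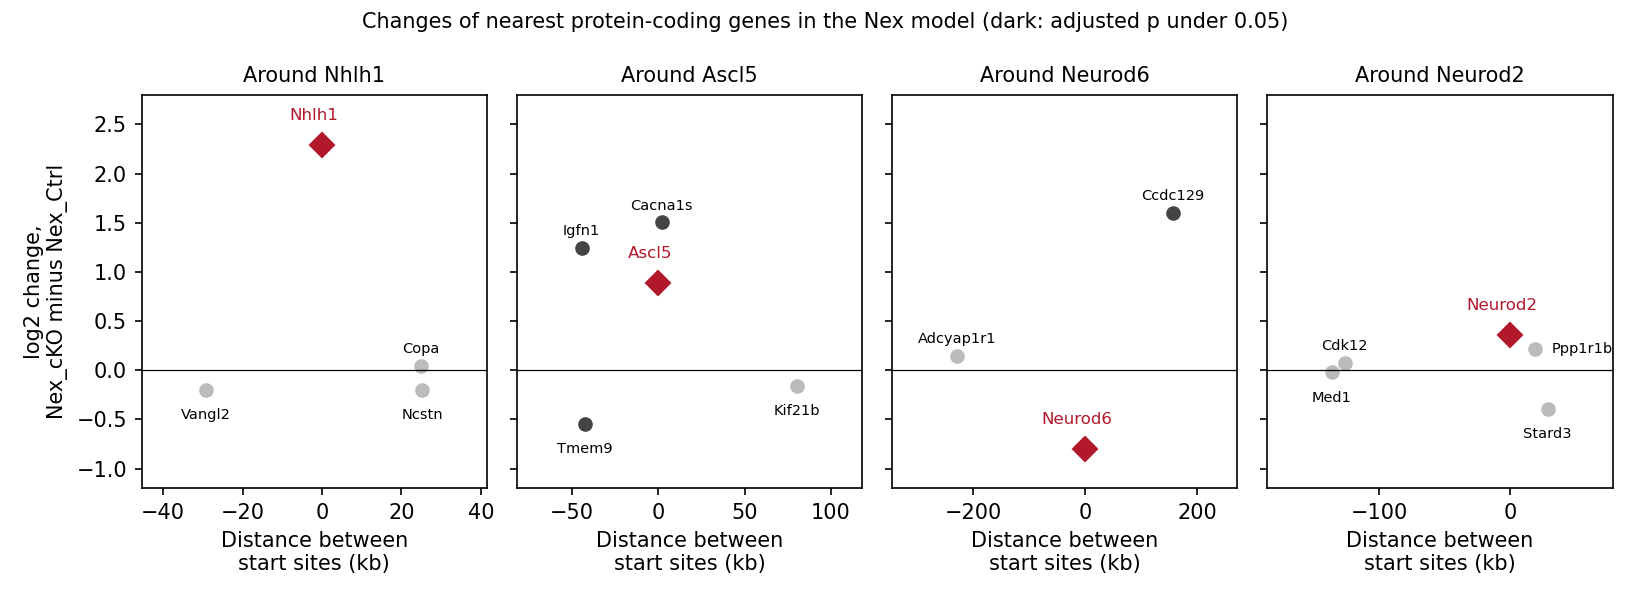
log2 change of FPKM + 1, Nex_cKO minus Nex_Ctrl, of the nearest tested genes against the distance between start sites in kb, around 4 of the genes; diamonds are the central genes and dark circles neighbours past the threshold. Cacna1s and Igfn1 lie at 1.51 and 1.25 beside Ascl5 at 0.89, while the neighbours of Nhlh1 lie between -0.20 and 0.045.

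Across the bHLH family as the 3-month table annotates it, 59 rows were tested in the Nex model. Nhlh1 had the highest log2 change and Neurod6 the lowest. Nhlh1 was selected for its rise and Neurod6 holds the Nex-Cre insertion, so these places are a description and not a result about the family. Beside Nhlh1, 8 of the rows passed the test as higher and 5 as lower, with a median log2 change over the 59 of -0.079 against -0.043 over all genes tested. Of all genes tested 4.47% were higher and 4.06% lower. Nhlh1, Twist1, the row of Ascl2 with Tspan32 and Mlxipl passed the filter only through Nex_cKO, so they could be tested only because they were higher there, and the call of Mlxipl was lost in 6 of 14 alternatives. Without any 1 Nex_Ctrl library or without Nex_cKO replicate 1, 5 rows beside Nhlh1 were higher. Without Nex_cKO replicate 3 the call of the Neurod1 row was lost (limma adjusted p 0.0520). Also higher with all libraries were Tcf15, Scx, Ascl5, the Neurod1 row and Neurod2, and those lower included Id3, Npas2, Mycn and Neurod6. In the Camk2a model 49 were tested, 0 passed and the median was 0.042 against -0.0090 over all genes. Leaving Nhlh1 out, those with an unadjusted limma p under 0.05 were Id1, Usf1, Mlx, Neurod2 and Id3 (higher) and Mycn (lower). Over all genes tested in that model 6.96% had one. Nhlh1, selected for its rise in this model too, again had the highest log2 change.

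No partner or antagonist gene of these factors rose past the threshold. None of the 3 E protein genes passed in the Nex model, nor at an unadjusted p under 0.05 (count 0): Tcf4 averaged 38.9 FPKM in Nex_cKO and 35.3 in Nex_Ctrl, Tcf3 6.40 in Nex_cKO and 7.51 in Nex_Ctrl, and Tcf12 7.66 in Nex_cKO and 8.10 in Nex_Ctrl. Of 4 Id genes 1 passed: Id3 fell to 16.4 ± 1.19 FPKM in Nex_cKO, against 23.8 ± 2.57 FPKM in Nex_Ctrl (log2 change -0.51, adjusted p 0.0115). Id1 averaged 7.32 FPKM in Nex_cKO and 11.7 in Nex_Ctrl and did not pass (adjusted p 0.129). Of 12 Hes and Hey genes and their Bhlhe relatives 7 were tested, 0 passed and 0 had an unadjusted p under 0.05, with a median log2 change of -0.17. Over all genes tested 4.47% were higher and 4.06% lower, and 23.5% had an unadjusted p under 0.05. In the Hes and Hey list 1 gene was lower when Nex_cKO replicate 2 was left out.

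Of 19 other proneural and neuronal bHLH genes, 7 were tested and 1 rose, where 4.47% of all genes tested were higher. The row of Ascl2 with Tspan32 averaged 1.34 FPKM in Nex_cKO and 0.161 FPKM in Nex_Ctrl (log2 change 1.01, adjusted p 0.00183), and Ascl2 cannot be told from Tspan32 in it. It too passed the filter only through Nex_cKO. A total of 11 rows of this list were under 1 FPKM in all 6 libraries.

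Of 22 bHLH genes known from other tissues 6 were tested in the Nex model and 3 rose, with none lower. Over all genes tested 4.47% were higher. The lists were chosen with earlier results of these data known, so such counts are not read against that share. Twist1, a mesenchymal factor, averaged 4.36 ± 0.450 FPKM in Nex_cKO and 0.372 ± 0.228 FPKM in Nex_Ctrl (log2 change 1.97, adjusted p 6.8e-05), and it passed the filter only through Nex_cKO. Scx, a tendon factor, averaged 6.21 ± 0.732 FPKM in Nex_cKO and 2.72 ± 0.115 FPKM in Nex_Ctrl (log2 change 0.95, adjusted p 0.000629). Tcf15, a factor of the paraxial mesoderm, averaged 2.53 ± 0.494 FPKM in Nex_cKO and 0.762 ± 0.248 FPKM in Nex_Ctrl (log2 change 1.0, adjusted p 0.0039). Just 1 Nex_Ctrl library reached 1 FPKM of Tcf15, so its passage of the filter rested on Nex_cKO. The median change over the 6 was 0.53. In the Camk2a model Scx averaged 2.53 FPKM in Camk2a_cKO and 1.30 FPKM in Camk2a_Ctrl (log2 change 0.57, adjusted p 0.719), and Twist1 and Tcf15 were under the filter. A total of 15 rows of the list stayed under 1 FPKM in every Nex library.

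Genes of the neurogenic cascade around proneural factors moved in both directions in the Nex model. Of the 22 genes of this list, 17 rows were tested, 1 rose and 2 fell, with a median log2 change of -0.11. By sign, 5 log2 changes were above 0 and 12 below. Over all genes tested 4.47% were higher and 4.06% lower. Mfng, a glycosyltransferase that modifies Notch, averaged 3.32 FPKM in Nex_cKO and 1.46 FPKM in Nex_Ctrl (log2 change 0.80, adjusted p 0.00704). Insm1, a zinc-finger factor of basal progenitors, fell to 2.15 FPKM in Nex_cKO, against 4.39 FPKM in Nex_Ctrl (log2 change -0.76, adjusted p 0.0133, and 0.0663 and 0.0591 without Nex_Ctrl replicate 1 or 2). The Notch ligand Dll1 fell to 0.546 FPKM in Nex_cKO, against 1.15 FPKM in Nex_Ctrl (log2 change -0.48, adjusted p 0.0473). It passed the filter only through Nex_Ctrl, since no Nex_cKO library reached 1 FPKM, and it lost the call when any single library was left out. At 3 months 0 genes of each of these 6 bHLH and cascade lists passed, and 2 Id genes and 2 cascade genes had an unadjusted p under 0.05. Over all genes tested at 3 months 6.96% had one. The 2 Id genes, Id1 and Id3, were higher in Camk2a_cKO (log2 change 0.65 and 0.29, limma adjusted p 0.463 and 0.706). Their point estimates were below 0 in the Nex model, where Id3 passed and Id1 did not. The 2 cascade genes, Btg2 and Rnd3, were lower (log2 change -0.41 and -0.31, adjusted p 0.598 and 0.685).

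Markers of immature neurons, in which Nhlh1 is normally expressed, were not higher as a group in Nex_cKO. Of 13 tested rows 0 rose and 2 fell, with a median of -0.052, where 4.47% of all genes tested were higher and 4.06% lower. By sign, 6 log2 changes were above 0 and 7 below. An unadjusted p under 0.05 was seen in 5 rows, beside 23.5% of all genes tested. The row of A330102I10Rik with Sox4 averaged 6.76 FPKM in Nex_cKO and 4.40 in Nex_Ctrl and did not pass (log2 change 0.52, adjusted p 0.0799). The summed FPKM of the list was 847 to 1054 in Nex_cKO, against 1090 to 1246 in Nex_Ctrl. Abundant genes weigh most in this sum, and Stmn1 averaged 436 FPKM in Nex_cKO and 597 in Nex_Ctrl. The 2 that fell, named after their values were seen, were Nrep at 31.7 FPKM in Nex_cKO against 46.2 in Nex_Ctrl (adjusted p 0.0106) and Cd24a at 1.02 in Nex_cKO against 1.83 in Nex_Ctrl (adjusted p 0.0427). Without Nex_Ctrl replicate 1 neither passed, and Cd24a was lost in 7 of 14 alternatives. Dcx, the microtubule protein of migrating neurons, averaged 5.91 ± 2.08 FPKM in Nex_cKO and 3.94 ± 0.610 FPKM in Nex_Ctrl and did not pass (adjusted p 0.201). Without Nex_cKO replicate 3 the count that fell was 3. Of 6 tested progenitor and cycling markers 0 passed limma's test and 1 had an unadjusted p under 0.05. Without Nex_cKO replicate 3, 1 of them was higher, and without Nex_cKO replicate 2, 1 was lower.

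Markers of mature cell types also differed between the Nex groups, beside the fall of Neurod6. Over all genes tested 4.47% were higher and 4.06% lower. Of 16 cortical excitatory markers 0 rose and 7 fell, with a median of -0.31. Their summed FPKM was 2782 to 3055 in Nex_cKO, against 3437 to 3698 in Nex_Ctrl. Without Nex_Ctrl replicate 3 the count that fell was 2, and without Nex_Ctrl replicate 1, Nex_Ctrl replicate 2 or Nex_cKO replicate 1 it was 4, 3 and 3. At 3 months the sum was 1906 to 2041 FPKM in Camk2a_cKO, against 1960 to 2029 FPKM in Camk2a_Ctrl. Of 5 tested dentate gyrus markers, listed because Neurod1 is high there, Lct rose and Npnt fell, and the summed FPKM of the list was 27.4 to 34.4 FPKM in Nex_cKO, against 29.5 to 33.5 FPKM in Nex_Ctrl. Lct passed the filter only through Nex_cKO, and the call of Npnt was lost without Nex_Ctrl replicate 1, 2 or 3.

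Of 12 GABAergic markers Gad2 rose, of 7 astrocyte markers Gfap, and of 7 microglia markers Trem2, beside the 4.47% of all genes tested that were higher. By sign, 6 GABAergic log2 changes were above 0 and 6 below, with a median of 0.011. For astrocyte markers 5 were above 0 and 2 below (median 0.071), and for microglia markers 6 and 1 (median 0.13). Of 9 oligodendrocyte lineage rows 1 rose, Cspg4, and 2 fell, Sox10 among them, with sums of 1188 to 1368 FPKM in Nex_cKO, against 1520 to 1652 FPKM in Nex_Ctrl. Of 6 endothelial and blood rows the 2 hemoglobin rows and Cldn5 fell, with sums of 91.7 to 127 FPKM in Nex_cKO, against 171 to 331 FPKM in Nex_Ctrl. The 3 endothelial and blood calls and the oligodendrocyte lineage calls were all lost without Nex_Ctrl replicate 1, Nex_Ctrl replicate 3 or Nex_cKO replicate 1, and those of the oligodendrocyte rows also without Nex_Ctrl replicate 2. Without Nex_cKO replicate 3, 2 GABAergic markers were higher and 2 endothelial and blood rows lower, and without Nex_cKO replicate 2, 1 GABAergic marker was higher and 1 lower. These marker genes were named after their values were seen. The part of cell makeup in the changes of the bHLH genes was not tested.

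The genes whose levels followed Nhlh1 most closely were Adgrd1, Inhbe, Cpxm2, Ntn5 and Mylk, by the lower of the Pearson r over the 6 Nex libraries and over the 4 Camk2a libraries, among 10984 genes. The lower r was 0.989 for Adgrd1, Inhbe and Cpxm2, 0.984 for Ntn5 and 0.980 for Mylk. These are descriptions over few libraries that share the group difference. Cpxm2, of the carboxypeptidase X family, averaged 5.91 FPKM in Nex_cKO and 0.564 FPKM in Nex_Ctrl, and 1.30 FPKM in Camk2a_cKO and 0.401 FPKM in Camk2a_Ctrl. Ntn5, a netrin, averaged 25.3 FPKM in Nex_cKO and 10.2 FPKM in Nex_Ctrl, and 7.02 FPKM in Camk2a_cKO and 3.63 FPKM in Camk2a_Ctrl. Mylk, myosin light chain kinase, averaged 14.1 FPKM in Nex_cKO and 3.80 FPKM in Nex_Ctrl, and 2.55 FPKM in Camk2a_cKO and 1.55 FPKM in Camk2a_Ctrl.
Adgrd1, an adhesion receptor, averaged 5.90 FPKM in Nex_cKO and 2.18 FPKM in Nex_Ctrl, and 1.76 FPKM in Camk2a_cKO and 0.717 FPKM in Camk2a_Ctrl. Inhbe, an activin subunit known from liver, averaged 1.24 FPKM in Nex_cKO and 0.194 FPKM in Nex_Ctrl, and 0.211 FPKM in Camk2a_cKO and 0.0913 FPKM in Camk2a_Ctrl. All 5 were higher in the knockout libraries of both models, which the choice by likeness to Nhlh1 fixes.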

How the data were processed

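RNA from somatosensory cortex was sequenced in 10 libraries. The authors deposited FPKM in 2 tables, 1 per model. STAR, cutadapt, DESeq2 and Cufflinks 2.2.1 were used with builds mm10 and GRCm38, in roles that are not stated, per the submitters' processing notes. Libraries were made with an NEBNext Ultra II kit, per the labels' protocols, which do not state strand handling, batches, or whether replicates were separate mice, so p-values measure the spread between these libraries, which may be technical.

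The 2.5-month table has 29610 rows, 4463 without a name and 1115 joining several genes; the 3-month table has 54532. For repeated names the row of highest mean was kept. Genes that reached an FPKM of 1 in 3 or more (Nex) or 2 or more (Camk2a) libraries were tested on log2(FPKM + 1) with limma 3.58.1 in R 4.3.3 (two-sided, intensity trend, Benjamini-Hochberg over all tested genes, threshold 0.05), each table apart, after a check on simulated data. The difference of changes was fitted on 10409 genes shared by name. In the 3-month table FPKM times gene length gave whole reads for 100.0% of values within 0.1 of a read. A count test was not run, since the values are FPKM. Alternatives were a pseudocount of 0.1, other filters and scalings, no trend, the omission of each library and a replicate block.

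The members and lists were chosen with earlier results of these data known. Genes named were the members, the deleted and driver genes, those past the threshold in each bHLH or cascade list (the 4 largest if more), the nearest 2 named protein-coding genes on each side of each member, and the 5 genes most like Nhlh1. The bHLH family annotation of the 3-month table was used after the table was seen. Sequences are from RefSeq; 6 of 6 members matched. Some results are not reported here.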

Additional observations from a re-analysis of the deposited data

How the results depend on the processing

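Of the 4 genes tested beside Nhlh1 in the Nex model, 4 passed. The count was 2 with a replicate block and 2 to 3 when each library was left out. It was 2 without any 1 of the Nex_Ctrl libraries or without Nex_cKO replicate 1, through the loss of Neurod2 and the Neurod1 row, whose adjusted p was also 0.0602 without the trend (Neurod2) and 0.0670 without the filter (Neurod1 row). Deviations from the group means of same-numbered libraries had r of -0.104 to 0.0167 at 2.5 months and 0.0496 at 3 months. With 2 libraries a group these deviations mirror each other, and every pairing at 3 months gave 0.0496 or -0.0496. Such values cannot settle whether the numbers pair the samples. The block gave an adjusted p of 0.0540 for Neurod2 and 0.0576 for the Neurod1 row. Ascl5 and Neurod6 kept their direction and side of the threshold in the Nex model in all alternatives that could test them.

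Directions turned in 4 cases, all of changes that had not passed: leaving out each library in turn gave -0.23 to 0.064 for Neurod1 (highest without Camk2a_cKO replicate 1) and -0.76 to 0.0072 for Neurod6 (highest without Camk2a_cKO replicate 2) in the Camk2a model. For Neurod2 it gave a difference between models of -0.11 to 0.19, below 0 without Camk2a_cKO replicate 1 and, at -0.012, without Nex_cKO replicate 2. The log2 change of Nhlh1 ran from 2.08 to 2.51 at 2.5 months and from 1.40 to 1.76 at 3 months, and was 3.50 and 3.15 with a pseudocount of 0.1. The cause was not tested. With a filter of 5 FPKM, Nhlh1 gave no value. Few reads stand behind Nhlh1, Nhlh2 and Ascl5 in the 3-month libraries, and depth is unknown at 2.5 months.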
